A study of Mus musculus with 9 samples.

Results

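Target genes of the transcription factor ATF4 were followed in gastrocnemius, the large calf muscle, of mice aged 6, 15 and 21 months. The 10 genes were taken by symbol from the deposited table of 17314 genes: Asns, Phgdh, Psat1, Shmt2, Mthfd2, Chac1, Trib3, Sesn2, Slc7a11 and Slc3a2. All 10 were found, and all 10 were among the 13044 genes that passed the filter on low counts. There were 3 mice per age and 1 library per mouse, and age is the only difference between the groups in the labels. The sources used here do not give strain, sex or any treatment.

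ATF4 is the effector of the integrated stress response. Kinases that sense amino acid shortage, unfolded protein in the endoplasmic reticulum, double-stranded RNA or haem deficiency phosphorylate the initiation factor eIF2, which lowers general translation while the ATF4 message is translated more. ATF4 then induces genes that make, import and save amino acids, charge transfer RNAs and feed back on the response. Because its own control is largely translational, the level of Atf4 messenger RNA is a poor measure of its activity. In skeletal muscle the program is known from fasting, disuse, mitochondrial dysfunction and ageing.

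ATF4 binds with C/EBP-family partners to a composite element whose core was searched as TGATGNAA on both strands (TTNCATCA on the opposite one) in windows of 250 bases before to 50 bases after the start sites listed by RefSeq (GRCm38.p6). All 10 genes had a window. The core occurred in 4 of the 10 genes, against 4.51% of the 27025 genes with a window and 2.79% of the 10375 tested genes with one. The members were chosen as known ATF4 targets, so this share is a description. The sequences that hold the core are shown because the members with the largest differences between ages, Chac1, Asns and Trib3, are among those 4. Those differences went both ways and none passed the threshold, and a link between the core and age was not tested. Capitals mark the core, and each sequence reads 5′ to 3′ on the strand of its gene. The first 3 are the 250 bases before the start site, at chr6:7693210-7693459 (minus strand) for Asns, chr2:119350992-119351241 (plus strand) for Chac1 and chr3:50443614-50443863 (minus strand) for Slc7a11. For Trib3, whose core begins 14 bases after the start site, 30 bases at chr2:152344028-152344057 (minus strand) are shown.
Asns: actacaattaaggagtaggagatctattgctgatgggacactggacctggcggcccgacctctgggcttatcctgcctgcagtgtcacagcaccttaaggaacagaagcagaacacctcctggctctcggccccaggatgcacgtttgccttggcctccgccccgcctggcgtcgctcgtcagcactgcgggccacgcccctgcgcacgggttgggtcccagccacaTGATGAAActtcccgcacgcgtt
Chac1: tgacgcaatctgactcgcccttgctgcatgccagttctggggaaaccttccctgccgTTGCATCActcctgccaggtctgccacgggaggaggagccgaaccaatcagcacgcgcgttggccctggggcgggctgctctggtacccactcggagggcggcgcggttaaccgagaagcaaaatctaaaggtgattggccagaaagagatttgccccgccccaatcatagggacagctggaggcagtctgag
Slc7a11: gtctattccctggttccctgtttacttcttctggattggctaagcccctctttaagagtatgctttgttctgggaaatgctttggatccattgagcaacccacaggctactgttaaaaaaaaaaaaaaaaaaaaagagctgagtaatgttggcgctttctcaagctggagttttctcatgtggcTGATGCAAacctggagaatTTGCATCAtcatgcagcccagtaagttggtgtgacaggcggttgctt
Trib3: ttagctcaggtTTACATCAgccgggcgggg
In Asns the core began 23 bases before the start site, in the orientation of the gene. Chac1 carried it on the opposite strand, 193 bases before the start. Slc7a11 carried 1 copy in each orientation, 66 and 47 bases before its start site, which lies inside the annotated span of the gene. The windows of Phgdh, Psat1, Shmt2, Mthfd2, Sesn2 and Slc3a2 did not contain these letters. The only windows of Mthfd2 and Slc3a2 also surround start sites inside the annotated span. The outer ends of Slc7a11, Mthfd2 and Slc3a2 were therefore not searched.

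Total estimated counts ranged from 15354396 to 17317856 per library. The 6 skeletal muscle fibre markers summed to between 86356 and 119397 CPM (counts per 1000000 reads, with TMM scaling for library composition) in every library. Among them, Myh1 ranged from 159 to 3850 CPM and Mb from 77.7 to 1785 CPM at 6 months. Acta1, Ckm, Myh4 and Ttn differed at most 1.17-fold between mice of that age. Slow and oxidative fibre markers separated libraries within each age. Their 5 genes summed to 3.07 CPM in mouse 2 at 6 months and to 4700 and 3927 CPM in mouse 1 at 15 months and mouse 3 at 21 months. Values without these 3 libraries are therefore given beside the main differences. Whole muscle was sampled, so fewer cells of a type and less RNA per cell cannot be told apart.

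The 10 genes lay at low to moderate levels. Per kilobase of transcript, the mean over the 9 libraries was 20.1 CPM for Chac1, 15.6 for Slc3a2, 11.7 for Shmt2 and 3.53 for Mthfd2. It was 1.19 for Asns, 1.16 for Phgdh, 1.06 for Psat1, 0.949 for Trib3, 0.760 for Sesn2 and 0.314 for Slc7a11. The ranges of neighbours in this order overlapped over the 9 libraries, except those of Shmt2 (10.6 to 13.5 CPM per kilobase) and Mthfd2 (1.85 to 5.94). Chac1 ranged from 6.68 to 81.8, and the ranges of Asns, Phgdh, Psat1, Trib3 and Sesn2 all shared values. The rank of Chac1 depended on age: per kilobase it averaged 36.6 CPM at 6 months, above Slc3a2 (16.9), and 7.09 CPM at 21 months, below Slc3a2 (14.6) and Shmt2 (11.1).

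At 21 against 6 months none of the 10 genes passed the threshold of adjusted p below 0.05 over all genes tested. The largest differences were a lower level of Chac1 and higher levels of Trib3 and Asns. The quasi-likelihood test of edgeR called 0 of 10 members, where 0.0153% of all genes were called, and DESeq2 also called 0 of 10, where it called 1.53% of all genes. At an unadjusted p under 0.05 there were 3 of 10 members (Chac1 lower, Asns and Trib3 higher), against 10.6% of all genes. The ages did not overlap in 4 of 10 members (Asns, Phgdh and Trib3 higher, Chac1 lower at 21 months), against 16.1% of all genes. By direction these were 3 of 10 higher against a background of 7.81%, and 1 of 10 lower against 8.31%. The median log2 fold change of the members was 0.31, with 6 higher and 4 lower, against -0.01 over all genes. Over the 9 members other than Chac1 it was 0.33. It was 0.13 without mouse 1 at 21 months and -0.18 over the 4 members that a filter of 5 CPM in 3 libraries kept. In the same comparison 5 of 5 slow and oxidative fibre markers were higher and 5 of 5 macrophage markers were lower, none past the threshold. All tested markers were also lower for adipocytes (3 of 3, median -1.64), fibro-adipogenic progenitors (3 of 3, median -0.38), Schwann cells (3 of 3, median -0.29) and erythrocytes (4 of 4, median -0.13), and higher for smooth muscle (3 of 3, median 0.31). Signs were mixed for endothelial (2 higher, 2 lower), satellite cell (2 higher, 1 lower) and skeletal muscle fibre markers (2 higher, 4 lower). The adipocyte marker sum was 1.76, 19.5 and 2.94 CPM in mice 1, 2 and 3 at 6 months. It ranged from 2.53 to 3.997 CPM at 21 months, and mouse 2 was the only young mouse above that range. The slow and oxidative fibre marker sum ranged from 3.07 to 1622 CPM at 6 months and from 1009 to 3927 CPM at 21 months. The macrophage marker sum ranged from 65.9 to 94.3 and from 42.5 to 74.7 CPM. The part of these cell types in the differences was not tested.

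**Figure D1:**
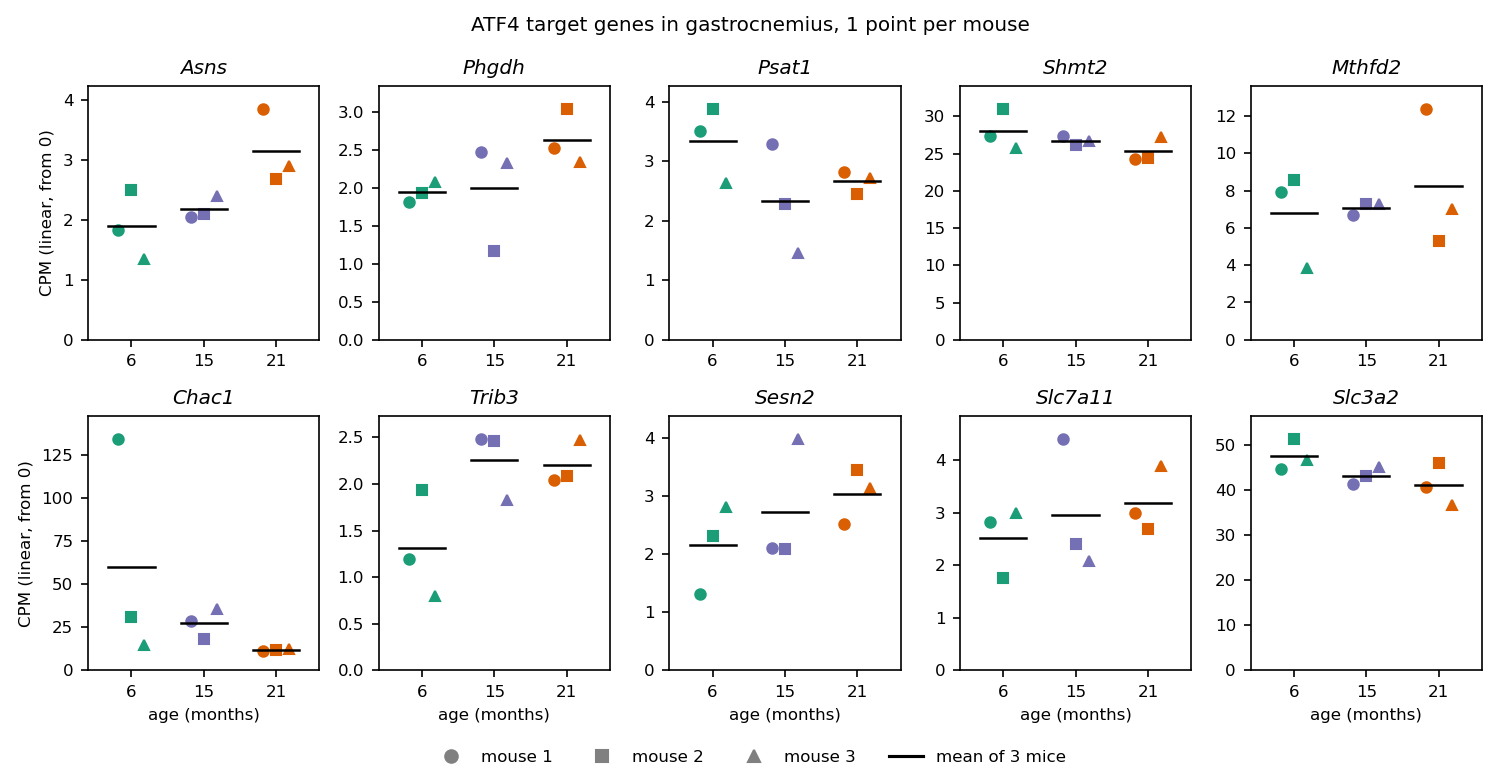
Level of each of the 10 genes in CPM (linear axis from 0) at 6, 15 and 21 months. Points are mice, with the shape giving the mouse number within an age, and bars are means of 3 mice; Chac1 in mouse 1 at 6 months stands at 134 CPM, and all 3 mice at 21 months lie between 10.9 and 12.4 CPM.

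Chac1 (Entrez ID 69065, chr2:119351242-119354326, mm10) encodes an enzyme that breaks down glutathione and is induced late in the ATF4 response. At 6 months the 3 mice stood at 134, 31.0 and 14.8 CPM. At 15 months they stood at 28.5, 17.9 and 35.5 CPM, and at 21 months at 10.9, 11.5 and 12.4 CPM. All 3 mice at 21 months lay below every younger mouse, and mouse 1 at 6 months stood far above all the others. The means were 59.9 ± 64.6, 27.3 ± 8.87 and 11.6 ± 0.711 CPM (SD, n = 3 each), so that the spread between mice was widest at the youngest age and narrowest at the oldest. The highest mouse exceeded the lowest 9.03-fold at 6 months, a ratio that 0.698% of all genes reached, 1.99-fold at 15 months, which 8.90% reached, and 1.13-fold at 21 months, which 73.6% reached.

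The log2 fold change of Chac1 was -2.37 (adjusted p = 0.228 by edgeR, SE 0.66) at 21 against 6 months, a 5.16-fold lower level. Its interval at 95%, without adjustment for the number of genes, ran from -3.83 to -0.91. It was -1.13 (adjusted p = 0.566, SE 0.62) at 15 against 6 months and -1.23 (adjusted p = 0.9999, SE 0.65) at 21 against 15 months, where the groups again did not overlap. As a linear trend the change over the 15 months from 6 to 21 was -2.31 (adjusted p = 0.172 by edgeR, SE 0.62). Without mouse 1 at 6 months the differences were -0.98 at 21 against 6 months (adjusted p = 0.375) and 0.25 at 15 against 6 months (adjusted p = 0.829). Without mouse 3 at 6 months the trend was -2.82 and passed the threshold (adjusted p = 0.0467). DESeq2 gave -2.37 (adjusted p = 0.0908) at 21 against 6 months, and without the 3 libraries that stood apart edgeR gave -2.73 (adjusted p = 0.282). Mouse 1 at 6 months also had the highest sum of the 5 macrophage markers, 94.3 CPM against 65.9 and 78.5 CPM in its group, and their part in its Chac1 level was not tested.

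Trib3 (Entrez ID 228775, chr2:152337425-152344060) encodes a pseudokinase that binds AKT and restrains ATF4 itself. At 6 months the mice stood at 1.19, 1.94 and 0.797 CPM. At 15 months they stood at 2.48, 2.47 and 1.83 CPM and at 21 months at 2.04, 2.09 and 2.47 CPM. All 3 mice at 21 months lay above all 3 at 6 months, and at 15 months 1 mouse fell within the range of the young ones. The log2 fold change was 0.75 (adjusted p = 0.430 by edgeR, SE 0.31) at 21 against 6 months and 0.78 (adjusted p = 0.422, SE 0.31) at 15 against 6 months, while 21 and 15 months differed by -0.04 (SE 0.30). The value at 21 against 6 months was 1.14 without mouse 2 at 6 months, 0.50 without mouse 3 at 6 months and 1.05 without the 3 libraries that stood apart. These levels rest on few reads. Mouse 3 at 6 months had 13 Trib3 reads, with an exact Poisson interval of 6.92 to 22.2 at 95%, and the highest count was 40, with an interval of 28.6 to 54.5. The intervals cover counting error only.

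Sesn2 (Entrez ID 230784, chr4:132492804-132510456) encodes sestrin 2, a leucine sensor that holds back mTORC1. The mice stood at 1.32, 2.32 and 2.82 CPM at 6 months, at 2.11, 2.096 and 3.98 CPM at 15 months and at 2.52, 3.46 and 3.15 CPM at 21 months. The ages overlapped. At 21 against 6 months the log2 fold change was 0.50 (adjusted p = 0.626 by edgeR, SE 0.33). It was 0.24 without mouse 1 and 0.75 without mouse 3 at 6 months, and 0.53 without the 3 libraries that stood apart.

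Asns (Entrez ID 27053, chr6:7675165-7693209) encodes asparagine synthetase, which makes asparagine from aspartate and glutamine and is a classical readout of amino acid shortage. At 6 months the mice stood at 1.82, 2.50 and 1.35 CPM. The levels were 2.05, 2.096 and 2.40 CPM at 15 months and 3.85, 2.68 and 2.90 CPM at 21 months. Each mouse at 21 months lay above every mouse at 15 and at 6 months, and mouse 1 at 21 months was the highest. Means were 1.89 ± 0.580, 2.18 ± 0.192 and 3.14 ± 0.617 CPM (SD, n = 3 each). The log2 fold change was 0.73 (adjusted p = 0.346 by edgeR, SE 0.26) at 21 against 6 months, 0.21 (adjusted p = 0.815, SE 0.26) at 15 against 6 months and 0.53 (adjusted p = 0.9999, SE 0.25) at 21 against 15 months. At 15 against 6 months it was 0.46 without mouse 2 and 0.021 without mouse 3 at 6 months, 0.13 without mouse 3 at 15 months and 0.50 without the 3 libraries that stood apart. The value at 21 against 6 months ran from 0.55 to 1.04 over the alternatives, the highest without the 3 libraries that stood apart, and its adjusted p from 0.247 to 0.687. Counts ran from 22 reads in mouse 3 at 6 months to 64 in mouse 1 at 21 months.

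Phgdh and Psat1 encode consecutive enzymes of serine synthesis from a glycolytic intermediate, and their differences at 21 months had opposite signs. Phgdh (Entrez ID 236539, chr3:98313171-98339969) stood at 1.82, 1.94 and 2.08 CPM at 6 months, 2.48, 1.17 and 2.34 CPM at 15 months and 2.52, 3.04 and 2.35 CPM at 21 months. The 3 mice at 21 months lay above the 3 at 6 months, with a log2 fold change of 0.44 (adjusted p = 0.612 by edgeR, SE 0.28). Without the 3 libraries that stood apart it was 0.51. Psat1 (Entrez ID 107272, chr19:15905123-15925059) stood at 3.52, 3.88 and 2.64 CPM at 6 months, 3.29, 2.28 and 1.45 CPM at 15 months and 2.82, 2.45 and 2.72 CPM at 21 months. These groups overlapped, with log2 fold changes of -0.33 (adjusted p = 0.718, SE 0.28) at 21 and -0.51 (adjusted p = 0.567, SE 0.28) at 15 against 6 months. The former was -0.21 without mouse 2 at 6 months and -0.22 without the 3 libraries that stood apart. The latter was -0.84 without mouse 1 and -0.26 without mouse 3 at 15 months, and -0.72 without the 3 libraries. The difference between both genes was not tested.

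Shmt2 and Mthfd2 act in succession in mitochondrial folate metabolism, where a carbon unit taken from serine is passed on to formate. Shmt2 (Entrez ID 108037, chr10:127517123-127522444) was among the steadiest members, at 28.0 ± 2.70, 26.7 ± 0.600 and 25.3 ± 1.69 CPM (SD, n = 3 each). Its log2 fold change at 21 against 6 months was -0.14 (adjusted p = 0.632 by edgeR, SE 0.10), with an unadjusted interval from -0.36 to 0.07. It was -0.07 without mouse 2 at 6 months, -0.06 with total count scaling and -0.12 without the 3 libraries that stood apart. Its exons share 32 bases with an exon of Ndufa4l2 on the opposite strand, and reads there cannot be assigned since use of the strand is not stated. Mthfd2 (Entrez ID 17768, chr6:83305704-83326011) stood at 7.92, 8.57 and 3.86 CPM at 6 months, at 6.69, 7.27 and 7.27 CPM at 15 months and at 12.4, 5.31 and 7.04 CPM at 21 months. Mouse 1 at 21 months was the highest and mouse 3 at 6 months the lowest, as for Asns. The log2 fold change at 21 against 6 months was 0.28 (adjusted p = 0.809, SE 0.33), and it was -0.14 without mouse 1 at 21 months, 0.01 without mouse 3 and 0.48 without mouse 2 at 6 months, 0.52 without mouse 2 at 21 months and 0.59 without the 3 libraries that stood apart.

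Slc7a11 and Slc3a2 form the cystine and glutamate exchanger, in which Slc7a11 is the transporting light chain and Slc3a2 the heavy chain that it shares with other transporters. Slc7a11 (Entrez ID 26570, chr3:50364936-50499087) stood at 2.83, 1.75 and 3.00 CPM at 6 months, 4.40, 2.40 and 2.08 CPM at 15 months and 3.00, 2.68 and 3.89 CPM at 21 months, with overlapping ages. Its log2 fold change at 21 against 6 months was 0.33 (adjusted p = 0.750 by edgeR, SE 0.32). It was 0.13 without mouse 2 at 6 months, 0.17 without mouse 3 at 21 months and -0.04 without the 3 libraries that stood apart. Slc3a2 (Entrez ID 17254, chr19:8706882-8723369) stood at 44.7, 51.1 and 46.5 CPM at 6 months, at 41.3, 43.0 and 45.0 CPM at 15 months and at 40.7, 45.9 and 36.6 CPM at 21 months. The ages overlapped, with log2 fold changes of -0.21 (adjusted p = 0.498, SE 0.10) at 21 and -0.14 (adjusted p = 0.678, SE 0.10) at 15 against 6 months. The former was -0.12 with total count scaling, -0.13 without mouse 3 at 21 months and -0.07 without the 3 libraries that stood apart. The latter was -0.062 with total count scaling, -0.081 without mouse 2 at 6 months and -0.050 without the 3 libraries. The deposited counts of Slc3a2 were not whole in 3 libraries, so its levels are uncertain by the reads that the counting split.

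**Figure D2:**
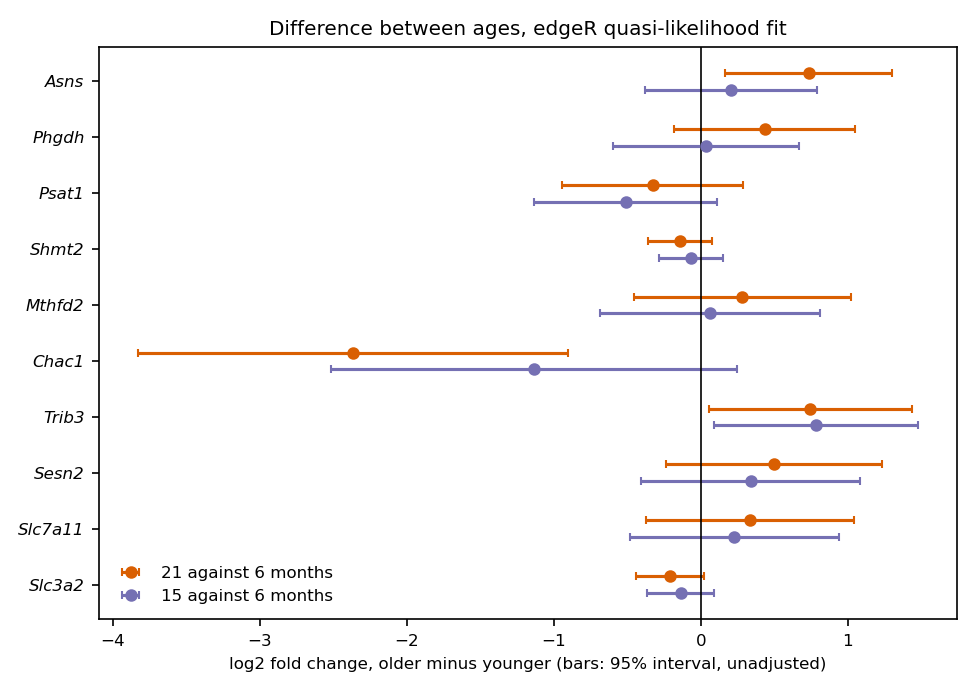
Log2 fold change of each gene at 21 and at 15 against 6 months (horizontal axis, older minus younger), with unadjusted 95% intervals from the edgeR fit to all 9 libraries. At 21 against 6 months the intervals of Asns, Trib3 and Chac1 leave out 0, with Chac1 at -2.37, and 0 of 10 genes passed after adjustment over all genes.

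At 15 against 6 months edgeR called 0 of 10 members (background 0.00767%), Trib3 was the 1 member with an unadjusted p under 0.05 (background 10.3%), and 0 of 10 had ages that did not overlap (background 13.8%, of which 6.64% higher and 7.14% lower). DESeq2 called 0 of 10 (background 0.874%). The median log2 fold change was 0.05, against -0.01 over all genes, and its sign was not stable: it was -0.048 without mouse 3 at 6 months, -0.096 without mouse 1 and -0.051 without mouse 3 at 15 months, and -0.028 without the 3 libraries that stood apart. At 21 against 15 months edgeR called 0 of 10 members (background 0%), with 0 of 10 at an unadjusted p under 0.05 (background 1.82%), and DESeq2 called 0 of 10 (background 0.0230%). Ages did not overlap in 2 of 10 members, Asns (higher, background 2.84%) and Chac1 (lower, background 3.30%), against 6.14% of all genes in both directions. The median was 0.13, against -0.003 over all genes, and -0.05 without mouse 3 at 15 months. Over all 3 ages the F-test of edgeR called 0 of 10 members (background 0%), with Asns and Chac1 at an unadjusted p under 0.05 (background 8.55%), and DESeq2 called 0 of 10 (background 1.56%). As a linear trend edgeR called 0 of 10 (background 0.222%), with Asns, Chac1 and Trib3 at an unadjusted p under 0.05 (background 12.1%), and DESeq2 called 0 of 10 (background 2.09%). The comparisons with 6 months share the same 3 young mice.

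The signalling genes upstream of these targets gave no calls at 21 against 6 months. Of 14 genes for eIF2 kinases and their regulators, eIF2, its exchange factor eIF2B and its phosphatase subunits, edgeR and DESeq2 called 0 at 21 against 6 months. With 8 higher and 6 lower, 1 had an unadjusted p under 0.05 in edgeR (background 10.6% of all genes, also for the lists that follow), and the median log2 fold change was 0.005. Ppp1r15a, the stress-induced phosphatase subunit for eIF2, which is named here after its values were seen, stood at -0.83 (adjusted p = 0.361, SE 0.28) at 15 and at -0.42 (adjusted p = 0.620, SE 0.27) at 21 against 6 months, with overlapping ages. Eif2ak4 (GCN2), the kinase that senses uncharged transfer RNA, stood at -0.31 (adjusted p = 0.521, SE 0.16) and Eif2ak3 (PERK), the kinase of the endoplasmic reticulum, at 0.11 (adjusted p = 0.808, SE 0.13). Eif2b4, a subunit of eIF2B, stood at 0.28 (adjusted p = 0.356, SE 0.10), while the abundant Eif2s1 and Eif2b5 stood at 0.0005 (SE 0.13) and -0.02 (SE 0.10).

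Of 9 transcription factors of the response 8 were tested, and edgeR and DESeq2 called 0 at 21 against 6 months. There were 4 higher and 4 lower, and 3 had an unadjusted p under 0.05 in edgeR (2 higher, 1 lower). Without overlap of the ages 2 of the 8 were higher (background 7.81%) and 0 lower (background 8.31%). Atf4 itself averaged 214 ± 43.0, 217 ± 15.2 and 215 ± 32.9 CPM (SD, n = 3 each). At 21 against 6 months it differed by 0.01 on the log2 scale (adjusted p = 0.990, SE 0.16). Ddit3, which encodes CHOP, the partner of ATF4 in prolonged stress, stood at 17.0, 12.9 and 16.7 CPM at 6 months, at 30.6, 26.1 and 17.0 CPM at 15 months and at 22.1, 17.96 and 26.9 CPM at 21 months. All mice at 21 months lay above the 3 young ones, and at 15 months mouse 3 was level with the highest young mouse. There were log2 fold changes of 0.66 (adjusted p = 0.361, SE 0.22) at 15 and 0.52 (adjusted p = 0.431, SE 0.22) at 21 against 6 months. Atf3, an early stress factor, stood at 12.95, 2.13 and 2.76 CPM at 6 months, 21.6, 4.93 and 4.86 CPM at 15 months and 10.5, 7.99 and 68.7 CPM at 21 months. Its log2 fold change of 2.29 (adjusted p = 0.433, SE 0.97) at 21 against 6 months came with overlapping ages and 1 mouse at 21 months far above the rest. Cebpb, a C/EBP partner of ATF4, stood at -1.09 (adjusted p = 0.261, SE 0.33) and Cebpg, another one, at -0.17 (adjusted p = 0.591, SE 0.10). In the linear trend DESeq2 called 1 of the 7 factors with an adjusted p, Cebpb, as lower (background 2.09% of all genes).

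**Figure D3:**
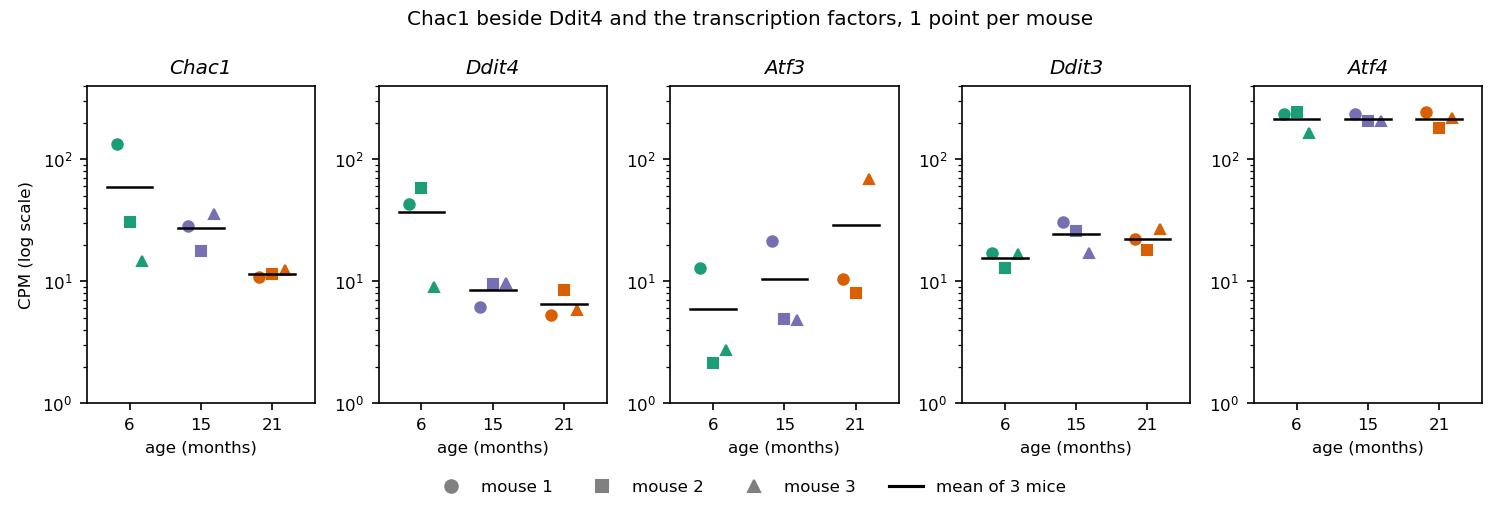
Level in CPM (logarithmic axis) of Chac1, Ddit4, Atf3, Ddit3 and Atf4 at 6, 15 and 21 months. Points are mice, with shapes for mouse numbers, and bars are means of 3 mice; Atf4 averages 214 to 217 CPM at every age, while Chac1 and Ddit4 are highest in mice at 6 months.

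The lists in this and the next paragraph hold other ATF4 targets and genes related to them, not known targets alone. They gave 0 calls in edgeR at 21 against 6 months, and DESeq2 called 1, Ddit4, as lower (background 1.53% of all genes). DESeq2 also called Ddit4 as lower over all 3 ages (background 1.56%) and in the linear trend (background 2.09%). Slc43a1 was called by DESeq2 as lower at 15 against 6 months (background 0.874%) and over all 3 ages. The values that follow are for 21 against 6 months. Of 12 cytosolic aminoacyl-tRNA synthetases, which load transfer RNAs with amino acids, 7 were higher and 5 lower, with 0 at an unadjusted p under 0.05 in edgeR and a median log2 fold change of 0.04. Eprs and Nars, the most abundant, stood at 0.13 (SE 0.12) and 0.05 (SE 0.14), and Tars and Yars at 0.22 (SE 0.13) and -0.19 (SE 0.15). Of 8 further amino acid transporters 7 were tested, with 2 higher and 5 lower, 3 of them at an unadjusted p under 0.05, and a median of -0.05. Slc43a1, a carrier of large neutral amino acids, stood at -0.61 (adjusted p = 0.241, SE 0.17) and Slc7a1, a carrier of cationic ones, at 0.54 (adjusted p = 0.329, SE 0.18). Without overlap of the ages 2 of the 7 were higher (background 7.81%) and 1 lower (background 8.31%), and Slc7a1 and Slc43a1 were among these. Slc38a2, an abundant carrier of small neutral amino acids, stood at -0.41 (adjusted p = 0.569, SE 0.23).

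Of 14 further enzymes of serine, folate, proline and cysteine metabolism 13 were tested, with 7 higher and 6 lower, 1 of them at an unadjusted p under 0.05, and a median of 0.10. Aldh18a1, which opens proline synthesis, stood at 0.86 (adjusted p = 0.410, SE 0.35) and the mitochondrial folate enzyme Aldh1l2 at -0.34 (adjusted p = 0.491, SE 0.16). The aminotransferases Got1 and Gpt2, the most abundant of the list, stood at 0.53 (SE 0.36) and 0.17 (SE 0.24). Of 14 further stress genes 12 were tested, with 6 higher and 6 lower, 1 of them (Ddit4) at an unadjusted p under 0.05. Their median was 0.01, and 1 of the 12 was lower without overlap of the ages (background 8.31%). Ddit4, which restrains mTORC1, stood at 43.2, 58.4 and 8.95 CPM at 6 months, at 6.14, 9.55 and 9.73 CPM at 15 months and at 5.35, 8.47 and 5.87 CPM at 21 months. As with Chac1, the oldest mice lay below all young ones and mouse 3 at 6 months lay close to the older mice. Its log2 fold change was -2.49 (adjusted p = 0.135 by edgeR, SE 0.54). Vldlr, a lipoprotein receptor, and Vegfa, a vascular growth factor, stood at 0.33 (SE 0.17) and 0.16 (SE 0.25). The secreted stress hormones Fgf21 and Gdf15 were too low to test. Fgf21 had 4, 3 and 0 reads in the mice at 21 months and 0 or 1 in each of the others, and Gdf15 had at most 1 read in any library. Mitochondrial chaperones and proteases, 5 in all, had a median of 0.02 and 0 at an unadjusted p under 0.05, with Hspa9 at 0.02 (SE 0.16), Hspd1 at 0.08 (SE 0.14), Lonp1 at -0.05 (SE 0.08) and Clpp at -0.11 (SE 0.11).

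The 12 genes of the list of endoplasmic reticulum chaperones under XBP1 and ATF6 differed from this picture in their values. All 12 were higher at 21 months without overlap of the ages (background 7.81%), the median log2 fold change was 0.78, and edgeR called 1, Xbp1, the transcription factor of the chaperone response, at 1.12 (adjusted p = 0.0423, SE 0.12). DESeq2 called 9 of the 12 as higher, against 1.53% of all genes in both directions. At 15 against 6 months all 12 were higher too, with a median of 0.46. Ages did not overlap in 11 (background 6.64% higher, 13.8% in both directions). In that comparison 9 had an unadjusted p under 0.05 in edgeR (background 10.3%). There edgeR called 0 and DESeq2 called 4 (background 0.874%). As a linear trend over months edgeR called 4 of the 12 as higher, against 0.222% of all genes in both directions. These were Xbp1 at 1.13 (adjusted p = 0.0156, SE 0.12) and the chaperones Hspa5 at 1.42 (adjusted p = 0.0412, SE 0.22), Hsp90b1 at 0.75 (adjusted p = 0.0450, SE 0.13) and Hyou1 at 0.80 (adjusted p = 0.0482, SE 0.14). The trend call of Xbp1 was lost without mouse 1 at 6 or at 21 months (adjusted p = 0.154 and 0.0811), and those of Hspa5, Hsp90b1 and Hyou1 without any 1 of the mice at 6 or at 21 months or mouse 3 at 15 months, and without the 3 libraries that stood apart (adjusted p from 0.0940 to 0.149). In the last case, with 6 libraries, their log2 changes were 1.52, 0.83 and 0.92, no smaller than with all 9. That of Hsp90b1 was also lost without mouse 1 at 15 months (adjusted p = 0.0525). The pairwise call of Xbp1 was lost without mouse 1 or 2 of either age (adjusted p from 0.103 to 0.209) and with only these ages in the fit (adjusted p = 0.0521). The list was chosen with earlier results known, and the difference between it and the 10 ATF4 targets was not tested.

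**Figure D4:**
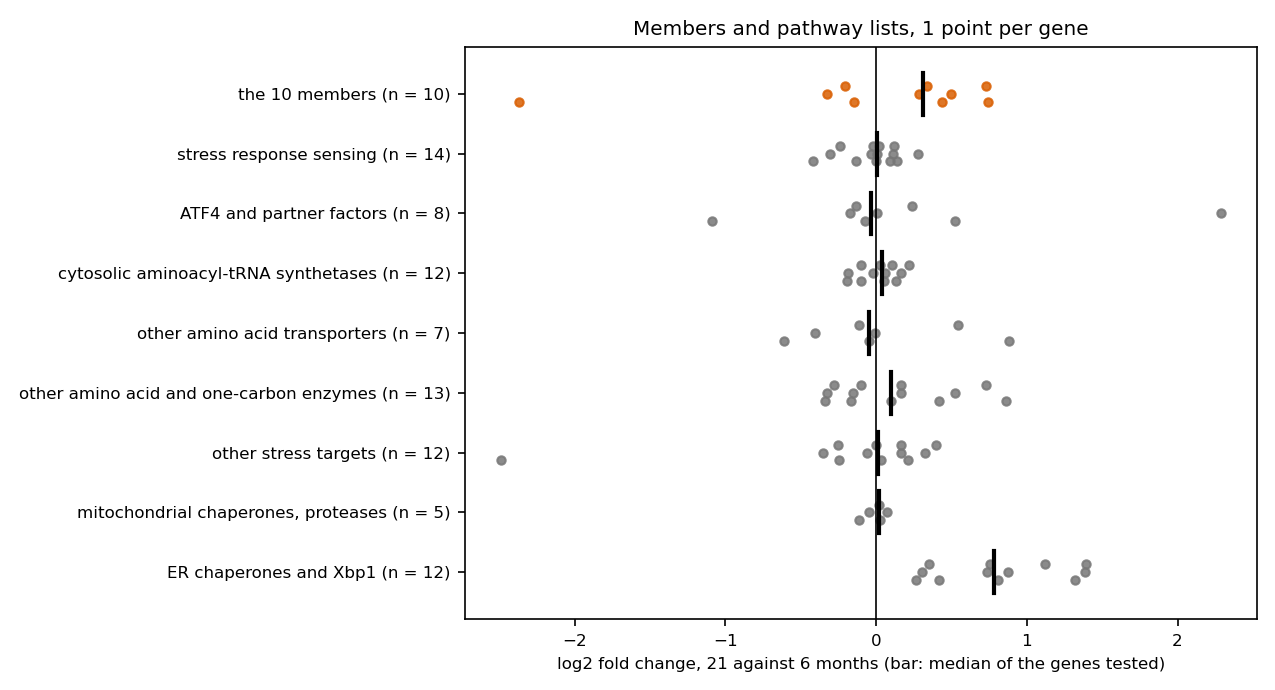
Log2 fold change at 21 against 6 months (horizontal axis) for the 10 members and the tested genes of 8 related lists, 1 point per gene, with a bar at the median of each list. The medians are 0.31 for the members, between -0.05 and 0.10 for 7 lists and 0.78 for endoplasmic reticulum chaperones, and Chac1 and Ddit4 lie farthest to the left at -2.37 and -2.49.

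Libraries did not order the members in a common way. Mouse 2 at 6 months was the highest library for 3 of 10 members (Psat1, Shmt2 and Slc3a2), against 20.3% of all genes. Mouse 1 at 21 months was the highest for 2 (Asns and Mthfd2), against 8.59%. Mouse 1 at 15 months was the highest for 2 (Trib3 and Slc7a11), against 13.5%. Mouse 3 at 6 months was the lowest for 3 (Asns, Mthfd2 and Trib3), and mouse 1 at 21 months for 2 (Chac1 and Shmt2). The summed level of the 9 members other than Chac1 ranged from 88.4 to 105 CPM over all libraries, and that of all 10 from 101 to 226 CPM, so that Chac1 carried most of the difference in the sum.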

How the data were processed

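RNA of 9 gastrocnemius samples, 3 mice at each of 3 ages, was extracted with TRIzol, selected with oligo(dT) beads and sequenced from DNA nanoballs, per the labels' protocols. The authors deposited estimated counts per gene by Entrez ID, not normalized, with mm10 as the build per the submitters' processing notes. The sources used here do not give the aligner, counter, annotation or strand use. Columns were matched to samples by life stage and number.

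Counts were rounded and filtered with filterByExpr (minimum count 10), and scaled with TMM in edgeR 4.0.16 (R 4.3.3). The quasi-likelihood test used the 9 libraries in 1 model, with age as a factor or, for the trend, months as a number, and p-values were adjusted over 13044 genes by Benjamini-Hochberg (threshold 0.05). It was tested on simulated data in which all genes shared 1 coefficient of variation between mice. In the data the common coefficient was 0.164 and that of Chac1 was 0.510. The simulation therefore does not show the power for genes as variable as Chac1. The check of RefSeq IDs (GRCm38.p6) found 17188 of 17314. Transcript length was that of the longest basic protein-coding transcript of GENCODE M21 (GRCm38). Intervals of fold changes are at 95% and are not adjusted for the number of genes.

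The members, the 8 pathway lists (88 genes), the markers and the tests were chosen with earlier results of these data known. From each list the text names genes past the threshold, the 2 with the smallest p at 21 against 6 months, the 2 with the highest mean, and Atf4, Atf3, Ddit3, Eif2ak3, Eif2ak4, Fgf21 and Gdf15. Alternatives were DESeq2 1.42.0, RLE or total count scaling, no filter, at least 5 CPM in 3 libraries, a replicate block, only the 2 groups compared, each library left out, and 3 libraries left out together.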

Additional observations from a re-analysis of the deposited data

How the results depend on the processing

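With edgeR and DESeq2 0 of 10 members were called in the 5 tests under every alternative run, except that Chac1 passed in the trend without mouse 3 at 6 months (0 to 1 members over the fits without 1 library). The counts of all genes called moved widely. At 21 against 6 months, 2 in the main analysis became 1 with total counts, 30 with no filter, 200 with DESeq2, 5 with the replicate block and 0 to 42 without 1 library. At 15 against 6 months, 1 became 114 with DESeq2 and 0 with total counts, at least 5 CPM, the replicate block or only 2 groups, and 0 to 10 without 1 library. At 21 against 15 months 0 became 3 with DESeq2. For all 3 ages 0 became 5 with no filter, 204 with DESeq2, 5 with the block and 0 to 10 without 1 library. For the trend 29 became 272 with DESeq2, 2 with the block, 2 without the 3 libraries and 0 to 43 without 1 library, and its split of 13 higher and 16 lower was 19 and 11 with total counts. Same-numbered mice did not deviate together (correlations from -0.504 to 0.449), so the replicate block has no basis in the labels or data. It also ended the trend calls of Hspa5, Hsp90b1 and Hyou1 (adjusted p = 0.0836 each).

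A filter of 5 CPM kept 4 members, with medians of -0.18 at 21 against 6 and -0.071 at 21 against 15 months. Without 1 library these medians ran from 0.13 (without mouse 1 at 21 months) to 0.36 and from -0.051 to 0.14, and that at 15 against 6 months from -0.096 to 0.14 (-0.10 at 5 CPM). Some differences changed sign, none of them called. The largest was that of Chac1 at 15 against 6 months, -1.13 in the main analysis and 0.25 without mouse 1 at 6 months. At 15 against 6 months the ranges without 1 library were -1.59 to 0.25 for Chac1, -0.21 to 0.27 for Mthfd2, -0.15 to 0.30 for Phgdh, -0.035 to 0.59 for Sesn2, -0.12 to 0.0095 for Shmt2 (0.0108 with total counts) and -0.17 to 0.43 for Slc7a11. At 21 against 15 months they were -0.198 to 0.46 for Mthfd2, -0.064 to 0.51 for Psat1, -0.16 to 0.0055 for Slc3a2, -0.092 to 0.51 for Slc7a11 and -0.17 to 0.032 for Trib3. For Mthfd2 they were -0.14 to 0.52 at 21 against 6 months and -0.091 to 0.48 in the trend. Without the 3 libraries that stood apart, Slc7a11 was -0.036 at 21 and -0.38 at 15 against 6 months and -0.078 in the trend, Phgdh -0.16 at 15 against 6 months and Sesn2 -0.0197 at 21 against 15 months. The causes were not tested. Counts of 13 to 71 reads for Asns, Phgdh, Psat1, Trib3, Sesn2 and Slc7a11 limit what this depth can show.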

Other observations

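Of the 83 related pathway genes tested, 25 (30.1%) had their highest level in mouse 2 at 6 months, against 20.3% of all genes. Next came mouse 1 at 15 months with 13 (15.7%, against 13.5% of all genes), and mice 1 and 3 at 6 months and mouse 3 at 15 months had 4 each. Mouse 2 at 6 months was also the library with the lowest sum of slow and oxidative fibre markers (3.07 CPM) and the highest sum of adipocyte markers (19.5 CPM, against 0.678 to 4.83 CPM in the other 8).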
